A study of Mus musculus with 16 samples.

Results

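The genes described here encode the ligands and receptors of axon guidance. They were the protein-coding RNA names that begin like an Eph receptor (*Epha*, *Ephb*), an ephrin (*Efna*, *Efnb*), a semaphorin, a plexin, a netrin or netrin-G, an Unc5 receptor, a Slit, a Robo, a neuropilin or a repulsive guidance molecule, together with *Dcc*. Of 75 annotated protein-coding genes with such names, 61 were listed with at least 1 significant RNA–DNA pair, among 10736 protein-coding RNA names listed in all. *Unc5cl*, which matches only by its letters, encodes a relative of the Unc5 proteins that is not known as a netrin receptor, and without it 60 RNAs remained.

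Axon guidance proteins tell a growing nerve fibre where to turn. Ephrins, semaphorins, netrins, Slits and repulsive guidance molecules are the cues, and Eph receptors, plexins with neuropilins, Dcc with Unc5 proteins, and Robos are the receptors that read them. Many of these genes are silent or nearly silent in pluripotent cells and are turned on as tissues form, and genes of this kind are frequent carriers of H3K27me3, the histone mark that Polycomb repressive complex 2 lays down on repressed chromatin.

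H3K27me3-RADIP and Input were compared in PGK12.1, a mouse embryonic stem cell line (mESCs) grown with Leukemia Inhibitory Factor and fixed with formaldehyde. Both groups come from unmodified cells of this single line, and differ in that the H3K27me3-RADIP chimeras of RNA, adaptor and DNA were selected with an anti-H3K27me3 antibody while the Input chimeras were kept without selection. Input was a small aliquot of the lysate, and the groups also differed in the washes and in the length of crosslink reversal, which cannot be told apart from the selection. The labels name 8 libraries per group, prepared from 4 biological replicates, and which libraries form a replicate is not given in the sources used here. The authors merged them into 1 table per group, so that every test below compares a pair of merged libraries, not the conditions, and has no replicate check. Input listed 1305107 pairs and H3K27me3-RADIP 1415135. Each pair is a short RNA tag, of 25 bases in the examples printed below, joined to a DNA tag. It was listed when the combination of that RNA and a 25-kb bin of the genome passed the authors' q-value limit of 0.1. Every listed combination of an axon guidance RNA and a bin held at least 7 pairs in both libraries. A bin below the limit is therefore missing with all its pairs, so an RNA named as not listed may still have been there. Of 14 stem cell markers, 8 were listed in Input with 4337 pairs in all and 9 in H3K27me3-RADIP with 4581, led by the pluripotency factor gene *Esrrb* with 2388 and 2500 pairs, whereas *Pou5f1* and *Nanog* were not listed in either. Of the 8 in both libraries, *Sall4* alone, with 22 and 52 pairs, was called higher by the test of pair counts described below. That is 12.5%, beside 6.77% of all shared protein-coding RNAs. Of 12 neural markers, 5 and 6 were listed, with 446 and 651 pairs in all, of which 259 and 470 belonged to *Rbfox3*, which was called higher. *Syt1*, with 33 and 10 pairs, was called lower, *Map2* had 119 and 104, and *Tubb3* and *Dcx* were not listed. Of the 5 neural markers in both libraries 20.0% were thus called higher and 20.0% lower, beside 6.77% and 7.69% of all shared protein-coding RNAs. Of 7 markers of other lineages, 3 were listed in each library, with 92 and 127 pairs. Listed pairs are RNA on chromatin and not a measure of expression. The part that other cell types took in the values below was not tested.

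To show what the RNA side of a pair looks like, the tag position that recurred most often was taken from each of the 4 axon guidance RNAs in which it was most frequent. Each is given 5′ to 3′ on the RNA strand as read from GRCm38.p6 (mm10), in lower case with nothing marked. All 4 lay in introns. The *Ntn1* tag (chr11:68382183-68382207, minus strand) occurred in 10 Input and 14 H3K27me3-RADIP pairs, which reached 19 different DNA positions in 13 bins. The *Epha4* tag (chr1:77402032-77402056, minus strand) occurred in 14 and 5 pairs with 17 DNA positions in 14 bins. The *Nrp2* tag (chr1:62788027-62788051, plus strand) occurred in 3 and 10 pairs, and the *Plxna1* tag (chr6:89349060-89349084, minus strand) in 2 and 7. The same stretch of intron was thus joined to many separate pieces of DNA.
Ntn1: ttccacagaggcccagcaacttaga
Epha4: atccactgtcctagtcttagttagt
Nrp2: atgcagacatgacaaggaggcaacc
Plxna1: cctggtctttgagggtggtggtgat

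Most pairs belonged to a few long genes. The 61 RNAs supplied 11140 Input pairs, which is 0.883% of the protein-coding pairs (95% Wilson interval 0.867 to 0.900). In H3K27me3-RADIP they supplied 13862, which is 1.02% (1.00 to 1.04). *Slit3*, *Ntn1*, *Epha4*, *Nrp2*, *Ephb2* and *Robo1* held 75.4% of them in Input and 73.8% in H3K27me3-RADIP. The median count per RNA was 38 for Input and 41 after selection, against 33 and 30 over all protein-coding RNAs. In Input 17 of the listed RNAs reached only 1 bin, and in H3K27me3-RADIP 18 did. A median axon guidance gene was 69.0 kb long, against 38.6 kb for all listed protein-coding genes. A pair count sums over many cells, so many cells with little of an RNA on chromatin and few cells with much of it cannot be told apart. Intervals cover counting error only, since repeated pairs, 7.79% and 9.65% of those counted here, cannot be told from amplified copies.

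**Figure D1:**
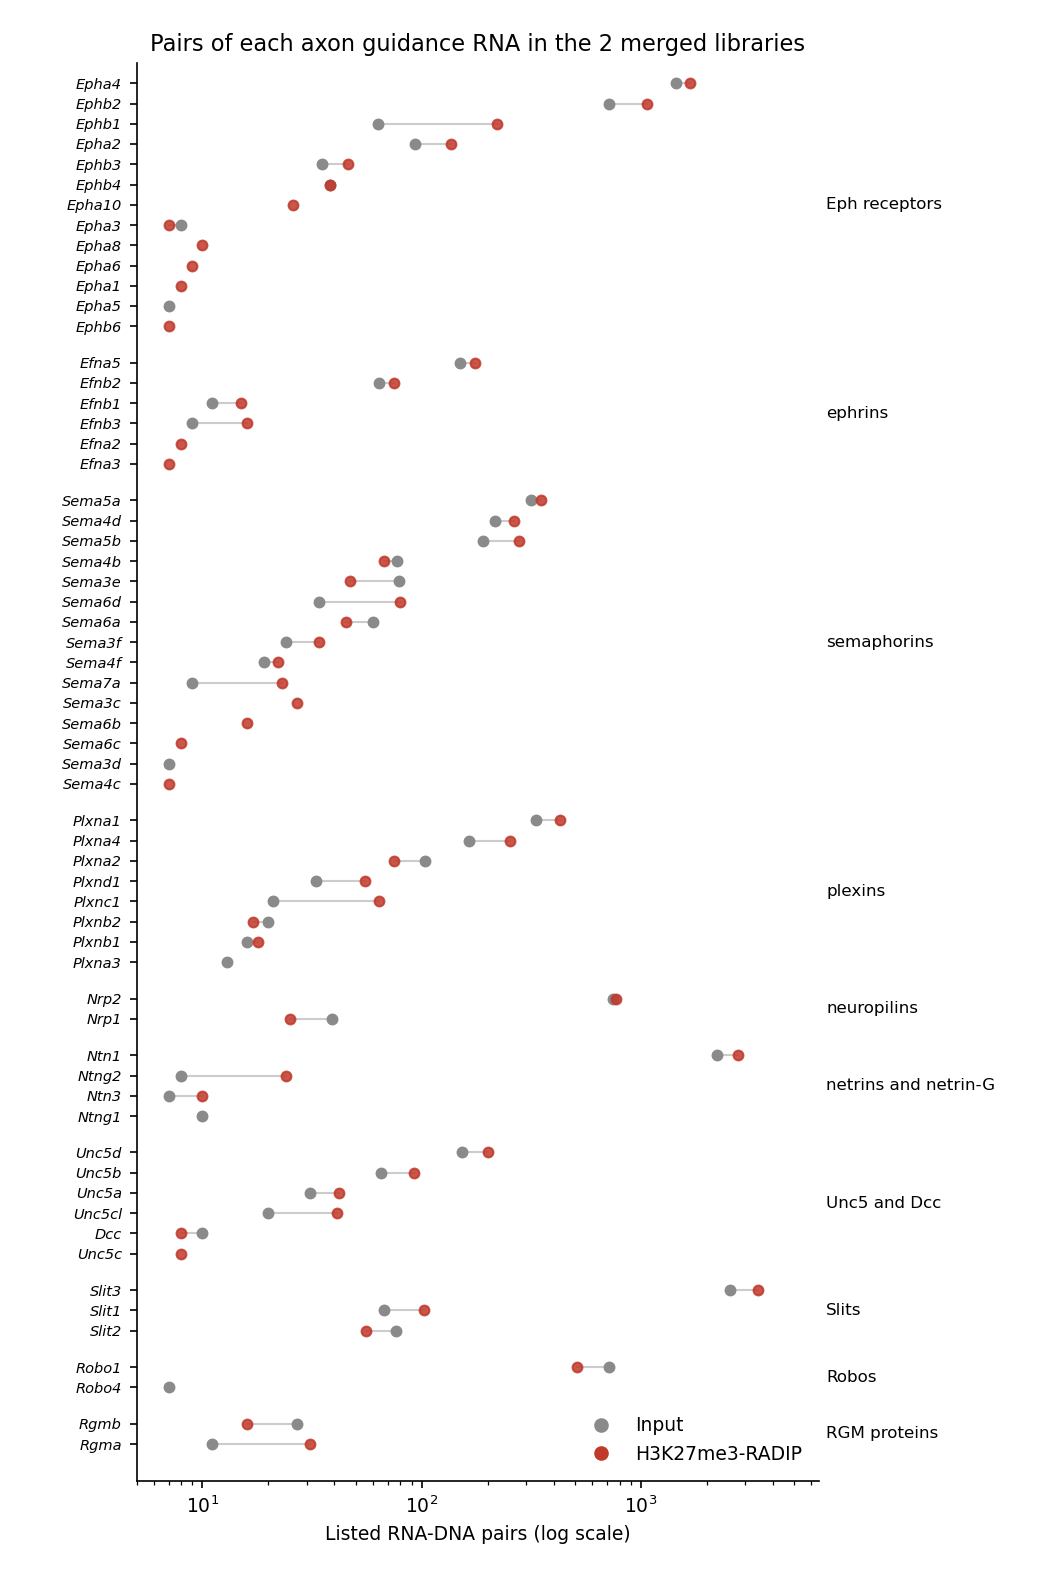
Listed pairs of each of the 61 axon guidance RNAs, grouped by family, on a logarithmic axis, with Input in grey and H3K27me3-RADIP in red. A missing point means that the RNA was not listed in that library, and the pairs range from 7 to 2543 in Input and from 7 to 3414 in H3K27me3-RADIP.

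Among the cues, the Slits, secreted ligands of Robo receptors, held the most pairs. *Slit3*, a gene of 587 kb on chromosome 11 (35121224 to 35708507), reached 114 bins with 2543 pairs in Input, and 121 bins with 3414 pairs after selection for H3K27me3. *Slit1* had 67 and 102 pairs and *Slit2* 76 and 56. No Slit passed the test of its pair count described below.

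The netrins, secreted cues read by Dcc and Unc5 proteins, were nearly all *Ntn1*, a gene on chromosome 11 (68209364 to 68400823). Its 2226 Input pairs fell in 71 bins and its 2787 H3K27me3-RADIP pairs in 94. Per length of gene it was the densest of all, with 116 and 146 pairs per 10 kb, followed by *Epha4* with 98.0 and 113 and by *Plxna1* with 71.7 and 92.0. *Ntn3* had 7 and 10 pairs and shares its strand and part of its sequence with *Tbc1d24*, in which 2 and 1 of its RNA tags lay, so these cannot be assigned. *Ntng2*, which encodes a membrane-anchored netrin-G, had 8 and 24 pairs. Its relative *Ntng1* had 10 pairs in Input and was not listed in H3K27me3-RADIP.

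Semaphorins, which act mostly through plexins, were the largest family, with 15 of 20 annotated genes listed and 1030 and 1267 pairs. The leading ones were the transmembrane *Sema5a* with 314 and 349 pairs, *Sema4d* with 217 and 263, and *Sema5b* with 190 and 279. *Sema3e*, a secreted cue, had 79 and 47 pairs. *Sema4b* had 77 and 67, *Sema6a* 60 and 45, *Sema3f* 24 and 34, *Sema4f* 19 and 22 and *Sema7a* 9 and 23. *Sema3c* with 27 pairs and *Sema6b* with 16 were listed in H3K27me3-RADIP only. The ephrins, ligands of Eph receptors, were 6 of 8 genes with 233 and 296 pairs, most of them from *Efna5* (149 and 175) and *Efnb2* (64 and 75), with *Efnb1* at 11 and 15 and *Efnb3* at 9 and 16. Of the repulsive guidance molecules, which bind neogenin, *Rgma* had 11 and 31 pairs and *Rgmb* 27 and 16.

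Among the receptors, the Eph receptor tyrosine kinases held the most pairs, 2413 in Input and 3251 in H3K27me3-RADIP, from 13 of 14 annotated genes. *Epha4*, on chromosome 1 (77367185 to 77515088), had 1450 pairs in 79 bins and 1672 in 93. *Ephb2*, on chromosome 4 (136647539 to 136835988), had 719 pairs in 34 bins and 1072 in 39. *Ephb1*, on chromosome 9 (101922128 to 102354693), had 63 pairs in 6 bins and 220 in 15. *Epha2* had 93 and 136 pairs, *Ephb3* 35 and 46, and *Ephb4* 38 in each library. *Epha10* with 26 pairs and *Epha8* with 10 were listed in H3K27me3-RADIP only. The family was thus carried by a few genes, and *Epha1*, *Epha3*, *Epha5*, *Epha6*, *Epha8* and *Ephb6* had at most 10 pairs in either library, near the smallest count that is listed.

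Neuropilins, coreceptors of secreted semaphorins, had 786 and 798 pairs, of which *Nrp2* on chromosome 1 (62703285 to 62818695) held 747 and 773. Plexins had 704 and 909 pairs. *Plxna1* (332 and 426) and *Plxna4* (165 and 254) led them, and *Plxnc1*, the receptor of Sema7a, had 21 and 64. *Plxna2* had 104 and 75, *Plxnd1* 33 and 55, *Plxnb1* 16 and 18, and *Plxnb2* 20 and 17. *Plxna3*, with 13 pairs in Input, was not listed in H3K27me3-RADIP. Of the Robos, receptors of Slits, *Robo1* on chromosome 16 (72308306 to 73046095) had 714 pairs in 36 bins in Input and 509 in 29 in H3K27me3-RADIP. *Robo1* was the only one of the 10 RNAs with the most pairs that had fewer in H3K27me3-RADIP. The Unc5 receptors *Unc5d* (152 and 201), *Unc5b* (65 and 92) and *Unc5a* (31 and 42) each had more pairs in H3K27me3-RADIP, while *Dcc* had 10 and 8.

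Across libraries, 44 RNAs were listed in both, 5 in Input only and 12 in H3K27me3-RADIP only. This is 10.2% of the axon guidance RNAs of Input and 21.4% of those of H3K27me3-RADIP, against 12.2% and 15.1% over all protein-coding RNAs. The RNAs in 1 library alone had 7 to 13 pairs in Input and 7 to 27 in H3K27me3-RADIP. Besides those named, they were *Epha5*, *Robo4* and *Sema3d* in Input, and *Efna2*, *Efna3*, *Epha1*, *Epha6*, *Ephb6*, *Sema4c*, *Sema6c* and *Unc5c* in H3K27me3-RADIP. Not listed in either were *Efna1*, *Efna4*, *Epha7*, *Ntn4*, *Ntn5*, *Plxnb3*, *Robo2*, *Robo3*, *Sema3a*, *Sema3b*, *Sema3g*, *Sema4a*, *Sema4g* and *Unc50*, the last of which is no netrin receptor.

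The pair counts of the shared RNAs were compared to find which axon guidance RNAs had more or fewer listed pairs in H3K27me3-RADIP than in Input. Of the 44, 6 were called higher and none lower, and those called were receptors and cues alike: *Ephb1*, *Ephb2* and *Plxnc1* among receptors, and *Ntng2*, *Rgma* and *Sema6d* among cues. This is 13.6% higher, beside 6.77% of the 8158 shared protein-coding RNAs called higher and 7.69% called lower. The median log2 fold change was 0.34 over the 44 (-0.06 when distinct bins were counted in place of pairs) and -0.01 over all shared RNAs, and 72.7% of the 44 had a value above 0, against 49.6%. Calls needed an adjusted p of at most 0.1 by an exact negative binomial test after TMM scaling, taking the biological coefficient of variation as 0.1 and Benjamini–Hochberg adjustment over all shared protein-coding RNAs, and a log2 fold change of at least 0.5. Without replicates this variation cannot be measured. Pairs of a bin enter or leave the tables together, so these counts are not independent, and the p-values and intervals do not cover this. With 0.2 in its place *Ephb1* alone was called, beside 0.503% of all shared protein-coding RNAs called higher. With 0.4, or with distinct bins counted in place of pairs, none was called, in this set or over all. With counting error alone 13 were higher and 3 lower, beside 951 higher (11.7%) and 1060 lower of all 8158.

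*Ephb1*, the largest riser, went from 63 to 220 pairs, a log2 fold change of 1.77 (95% exact interval 1.36 to 2.20, adjusted exact p = 3.82e-07). Its DNA tags stayed almost entirely within its own gene, 100% of them in Input and 98.6% in H3K27me3-RADIP, and 4 of its bins were shared. *Plxnc1* rose by 1.58 (0.84 to 2.36, adjusted exact p = 0.00417) and reached 5 bins in place of 2. *Sema6d*, a transmembrane semaphorin of 578 kb on chromosome 2, went from 34 pairs in 4 bins to 80 in 8, a rise of 1.20 (0.61 to 1.83, adjusted exact p = 0.0164). The DNA tags of *Plxnc1* lay within its gene in 100% of Input and 95.3% of H3K27me3-RADIP pairs, and those of *Sema6d* in 100% of both. Bins below the q-value limit are missing, so sparser contacts of these RNAs elsewhere could not be seen.

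*Rgma* rose by 1.46 (0.43 to 2.60, adjusted exact p = 0.0681), from 1 bin to 2. *Ntng2* rose by 1.55 (0.35 to 2.92) from 8 pairs and only just passed (adjusted exact p = 0.0990), and its call was lost when repeated pairs were counted once or library totals replaced TMM. *Ephb2* had the smallest change of the 6, 0.54 (0.41 to 0.68, adjusted exact p = 0.0898), and was lost with library totals too. On the other side, *Robo1* had a log2 fold change of -0.52 (-0.69 to -0.35, adjusted exact p = 0.119) and *Sema3e* of -0.78 (-1.33 to -0.24, adjusted exact p = 0.134), so both missed the limit. They were the 2 RNAs with an unadjusted p under 0.05 in this direction, and *Robo1* was called lower under 5 of the alternatives.

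**Figure D2:**
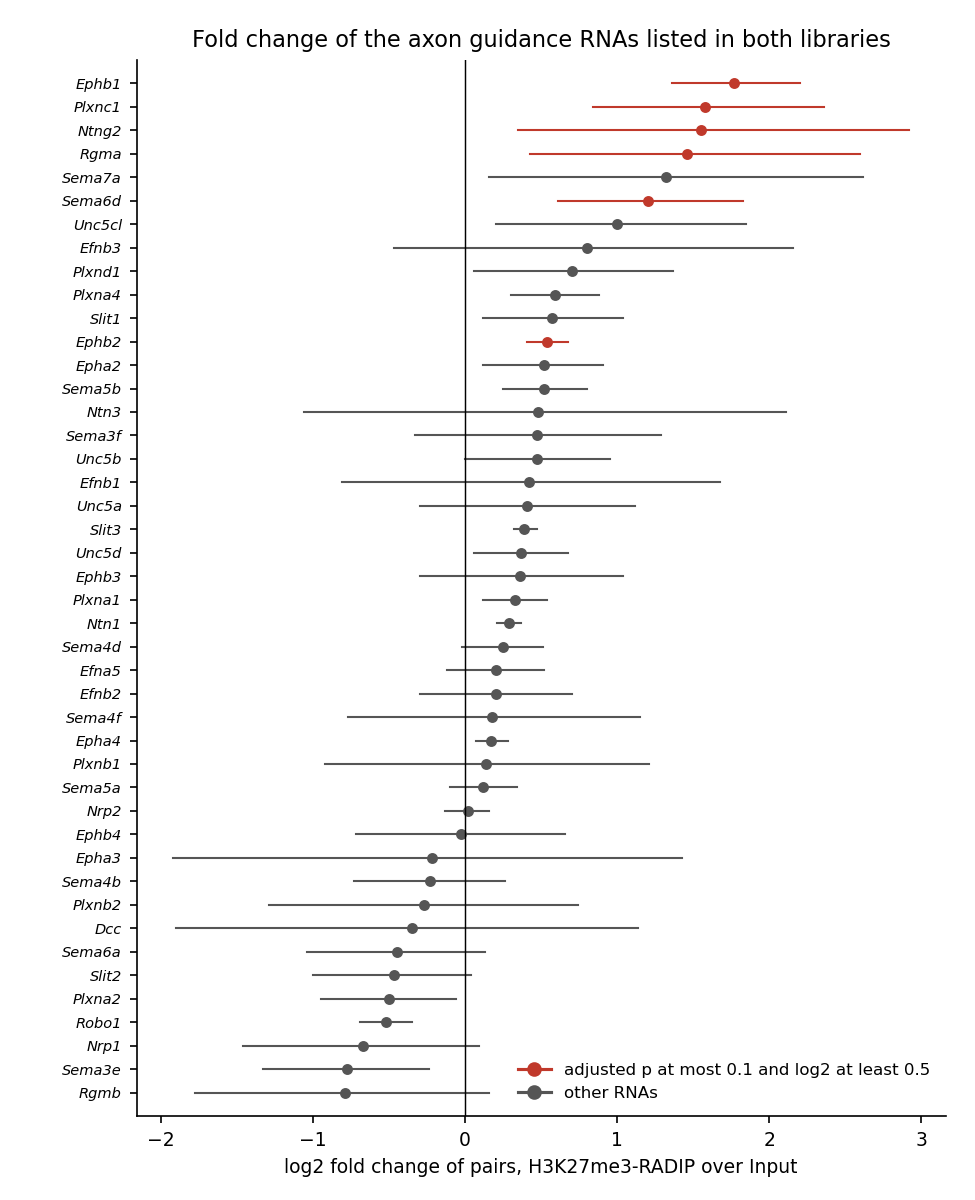
Log2 fold change of pairs, H3K27me3-RADIP over Input, for the 44 axon guidance RNAs listed in both libraries, with 95% exact intervals that cover counting error only. The 6 called RNAs are in red, from *Ephb2* at 0.54 to *Ephb1* at 1.77, and no RNA was called lower.

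Summed over each family, the ratio of pairs after the same scaling was highest for *Dcc* and the Unc5 names, *Unc5cl* among them, 1.38, and for Eph receptors, 1.32, and lowest for Robos, 0.690, and neuropilins, 0.993. Slits had 1.30, plexins 1.26, ephrins 1.24, netrins 1.23, repulsive guidance molecules 1.21 and semaphorins 1.20. Cues as a group rose from 6238 to 8003 pairs, a log2 ratio of 0.33 (0.28 to 0.38), and receptors from 4882 to 5818, a log2 ratio of 0.22 (0.17 to 0.28). Both sums are led by a few genes, and the difference between them was not tested. They cover bins listed separately in each library, 284 and 337 for cues and 268 and 307 for receptors. Of the shared RNAs, 3 of 22 cues (13.6%) and 3 of 21 receptors (14.3%) were called higher, beside 6.77% over all. All axon guidance RNAs together had a log2 ratio of 0.28 (0.25 to 0.32), and 0.08 was found for all protein-coding RNAs. The number of bins they reached, relative to that of all protein-coding RNAs, hardly moved, with a log2 ratio of 0.03 (-0.13 to 0.20).

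RNAs of genes that act with these receptors were listed too. Of 21 genes for coreceptors and further cues, 16 were listed in both libraries, of which 4 were called higher (25%) and 1 lower (6.25%), beside the 6.77% and 7.69% over all shared protein-coding RNAs. The higher ones were *Met*, a receptor tyrosine kinase (7 and 32 pairs), *Nfasc*, an axonal adhesion molecule (228 and 439), *Gpc1*, a heparan sulfate proteoglycan (30 and 62), and *Dscaml1*, an adhesion molecule (684 and 1015). The lower one was *Ptch1*, the Hedgehog receptor, with 382 and 238 pairs. Of 58 genes for cytoplasmic signalling, 52 were listed in both, with 6 called higher (11.5%) and 3 lower (5.77%), beside the same background. Among the higher ones, *Ngef*, an exchange factor downstream of Eph receptors, had 16 and 49 pairs, *Ablim1* 61 and 151, *Abl1* 256 and 426, *Dpysl5* 131 and 221 and *Nfatc2* 111 and 183. The 3 lower were *Rock1* (113 and 48), *Dpysl3* (55 and 24) and *Pak2* (72 and 39). The most abundant of this list, *Dock1* (2876 and 3682), *Enah* (2111 and 2082) and *Sipa1l1* (1723 and 1843), were not called. The median log2 fold change was 0.28 for the first list and 0.23 for the second.

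Introns held 94.0% of the RNA tags in Input (interval 93.5 to 94.4), and after selection 94.7% (94.3 to 95.1), compared with 88.9% and 89.6% over all protein-coding RNAs. Coding exons held 2.70% and 2.29%, 3′ untranslated regions 1.55% and 1.44%, and 5′ untranslated regions 0.889% and 0.786%. Among RNAs with at least 20 pairs, the intronic share was lowest for *Ephb3* in Input, 60.0%, and for *Sema3f* in H3K27me3-RADIP, 67.6%, both short genes. The Slits had the highest share of any family, 98.4% and 98.6%, and plexins had 84.4% and 86.9%. Whether these tags belong to unspliced RNA or to excised introns was not tested.

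Most pairs far from the site of transcription belonged to the few abundant RNAs. A listed bin held at least 7 pairs, so an RNA with few pairs can be listed in few bins only. Reach thus cannot be told apart from abundance here. Every pair of the 61 RNAs was in *cis*, on the chromosome of its own gene. Nearly all listed pairs were, since over all protein-coding RNAs 0.00293% in Input and 0.0251% in H3K27me3-RADIP joined another chromosome. In Input 49.2% of the axon guidance pairs (48.2 to 50.1) lay more than 100 kb apart (long-range), and in H3K27me3-RADIP 51.8% (51.0 to 52.7). Over all protein-coding RNAs these shares were 36.4% and 43.7%, so the difference was 2.66 percentage points here and 7.28 there. The 2.66 points are pooled over pairs, and with every shared RNA given the same weight the difference was 1.28. Without *Slit3*, *Ntn1* and *Epha4* the share was 29.1% in both libraries. The median RNA had a median distance of 4.58 kb without selection and 5.67 kb with it, shorter than the 6.16 and 7.01 kb over all protein-coding RNAs, and only 23 and 26 RNAs had any long-range pair.

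Of 32 axon guidance RNAs with at least 20 pairs in each library, 7 had a higher long-range share in H3K27me3-RADIP and 1 a lower one, at an adjusted p of at most 0.1 by Fisher's exact test. That is 21.9% and 3.12%, beside 28.2% and 3.84% of the 5264 protein-coding RNAs tested, so both shares were below those of all RNAs tested. *Epha4* rose from 62.8% (60.3 to 65.3) to 73.7% (71.5 to 75.7, adjusted exact p = 3.29e-09), and its median distance went from 205 to 374 kb. *Ntn1* rose from 57.8% to 62.8% (adjusted exact p = 0.00190), with a median distance of 153 and then 176 kb. *Slit3*, the RNA with the most pairs, had 72.6% and 72.1% (adjusted exact p = 1.00), and a difference of -0.506 points.

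The others called higher were *Efna5*, from 20.8% to 32.6% (adjusted exact p = 0.0775), *Plxna1*, from 31.9% to 39.9% (0.0873), *Sema4d*, from 7.37% to 14.4% (0.0664), *Efnb2*, from 0 to 9 of 75 pairs (0.0168), and *Unc5b*, from 0 to 8 of 92 pairs (0.0710). *Slit2* fell, from 23 of 76 long-range pairs to 6 of 56 (adjusted exact p = 0.0380). Pairs of a bin enter or leave the tables together, so these tests count pairs that are not independent, and a listed bin holds at least 7. *Unc5b* was not called at a q-value limit of 0.01 or with repeated pairs counted once, nor was *Efna5* under the first or *Plxna1* under the second.

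**Figure D3:**
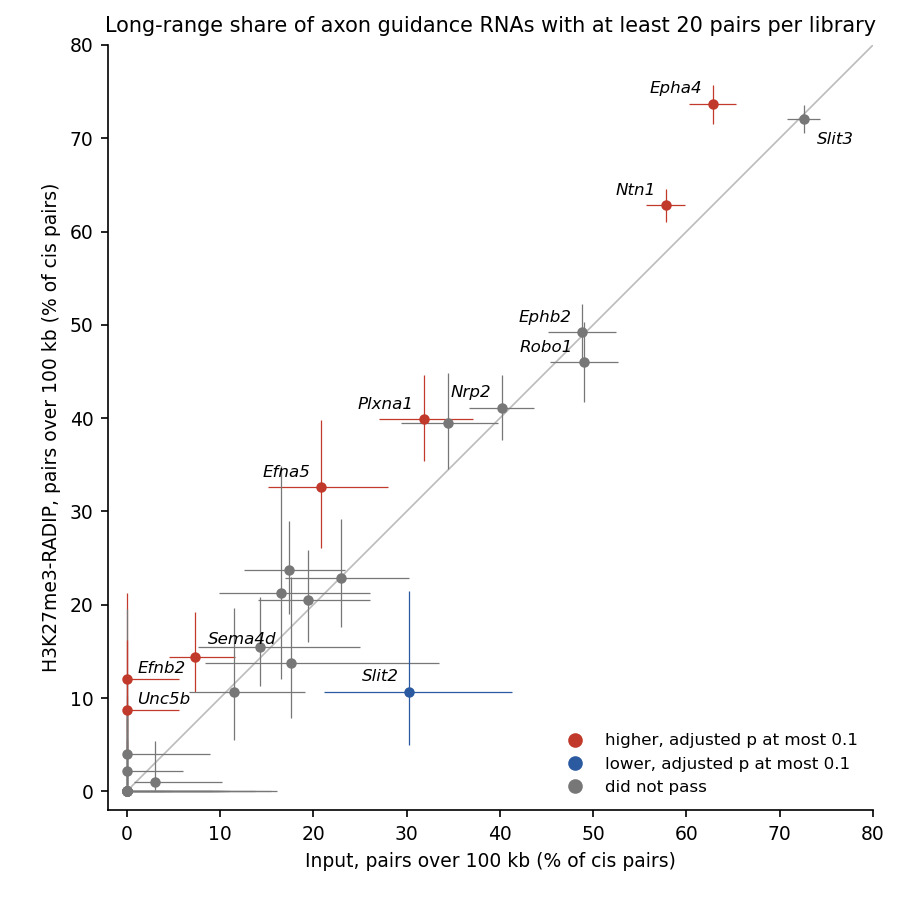
Share of pairs over 100 kb in Input (horizontal, %) and H3K27me3-RADIP (vertical, %) for the 32 axon guidance RNAs with at least 20 pairs in each library, with 95% Wilson intervals and a line of equal shares. *Epha4* at 62.8% and 73.7% lies farthest above the line among the abundant RNAs, *Slit3* lies near it at 72.6% and 72.1%, and *Slit2* lies below it.

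More than 1 Mb apart were 791 Input pairs (7.10%) and 1408 H3K27me3-RADIP pairs (10.2%) of the axon guidance RNAs, against 4.48% and 7.04% for all protein-coding RNAs. These pairs came from 6 RNAs in Input and 7 in H3K27me3-RADIP. *Slit3* had 458 and 680 of them, *Epha4* 264 and 464, and *Ntn1* 56 and 248. As a share of its own pairs, *Ntn1* went from 2.52% to 8.90% and *Epha4* from 18.2% to 27.8%, while *Slit3* reached 19.9% in H3K27me3-RADIP, from 458 of its 2543 pairs in Input.

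Beyond 3 Mb, 13 bins were listed in H3K27me3-RADIP only and 1 in Input only. Bins this far were mostly in H3K27me3-RADIP for all protein-coding RNAs too, with 65.7% of 3373 combinations in that library only and 15.9% in Input only. *Ntn1* RNA reached 7 such bins in H3K27me3-RADIP and none in Input, the farthest 16.8 Mb away in *Col23a1* (8 pairs). *Slit3* reached 6 bins, among them one in *Il12b* with 10 pairs at 9.08 Mb and one in *Hbq1a* with 12 pairs at 3.01 Mb, and 1 bin in Input, in *Adamts2* with 8 pairs at 15.3 Mb. None of these 14 bins was listed for the same RNA in both libraries, and each held 8 to 12 pairs, close to the smallest number that is listed.

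**Figure D4:**
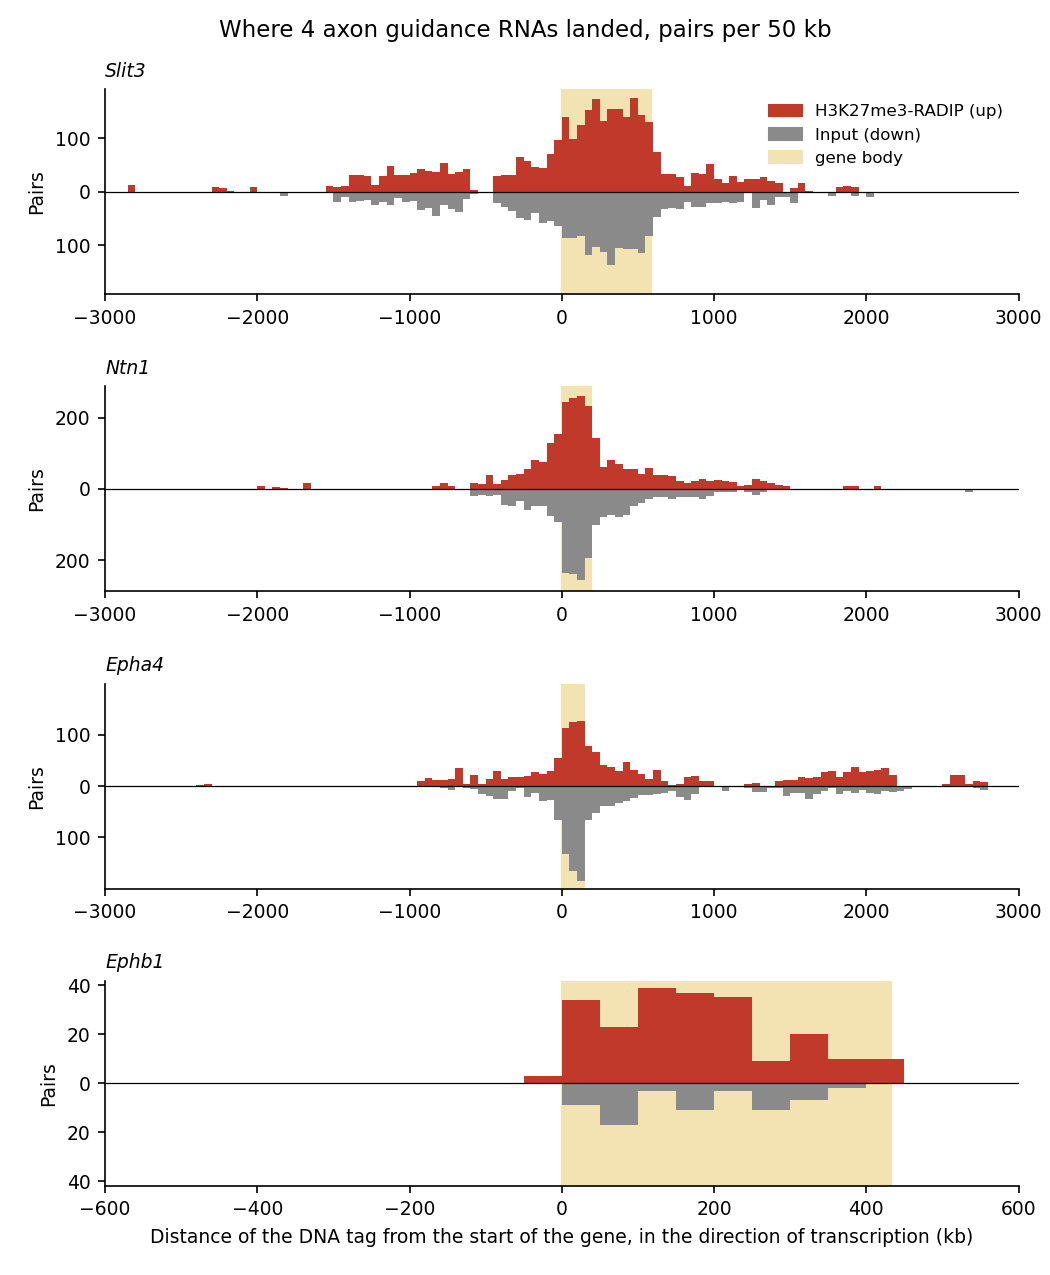
DNA tags of *Slit3*, *Ntn1*, *Epha4* and *Ephb1* RNA by distance from the start of the gene in the direction of transcription (kb), as pairs per 50 kb, with H3K27me3-RADIP drawn upward, Input drawn downward and the gene body shaded. *Epha4* has a separate group of tags about 2 Mb downstream that is taller in H3K27me3-RADIP, and 98.6% of the *Ephb1* tags of H3K27me3-RADIP lie inside the gene. Tags beyond the axis are not drawn.

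The bins that held start sites of other genes were then read off, to see which genes these RNAs reached. The axon guidance RNAs were listed with 95 such combinations, 50 in both libraries, 37 in H3K27me3-RADIP only (38.9%) and 8 in Input only (8.42%). Over all protein-coding RNAs, 34.4% of 19464 such combinations were in H3K27me3-RADIP only and 17.5% in Input only. The 95 held 789 pairs in Input, 7.08% of the total, and 1380 in H3K27me3-RADIP, 9.96%. *Ntn1* RNA at *Pik3r5*, 36.7 kb beyond the start of the *Ntn1* gene, was the largest, with 42 and 74 pairs, followed by *Ntn1* RNA at *Mfsd6l* with 33 and 59. *Slit3* RNA had 22 and 41 pairs at *Spdl1*, and 17 and 21 at *Foxi1*, a forkhead factor gene 909 kb away.

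*Epha4* RNA reached the start-site bin of *Pax3*, a neural crest and muscle regulator 672 kb away, with 22 pairs in H3K27me3-RADIP, and was not listed there in Input. It also had 19 pairs at *Des*, which encodes desmin, and 9 at *Ihh*, a Hedgehog ligand gene about 2.4 Mb away, in H3K27me3-RADIP only. At *Wnt6* it had 12 pairs in Input and was not listed in H3K27me3-RADIP. In the stretch near 2 Mb it was listed in both libraries at *Gmppa* (11 and 17 pairs), *Speg* (10 and 15) and *Slc4a3* (8 and 17). *Ephb2* RNA was listed at *Wnt4*, 452 kb away, with 16 and 9 pairs, and at the complement genes *C1qa*, *C1qb* and *C1qc*, which share a bin, with 15 and 27.

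A single RNA of this set landed on another gene of the set. *Ephb2* RNA was listed over the body of *Epha8*, its neighbour on chromosome 4 (136929419 to 136956816), with 20 pairs in Input and 35 in H3K27me3-RADIP. Their bodies lie 93.4 kb apart.

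The combinations of RNA and bin themselves overlapped broadly. Of 554 in Input and 647 in H3K27me3-RADIP, 460 were shared, which is 83.0% of the Input and 71.1% of the H3K27me3-RADIP combinations. Over all protein-coding RNAs the shares were 76.7% and 67.1%. *Slit3* shared 101 of its 114 and 121 bins, *Ntn1* 67 of 71 and 94, and *Epha4* 62 of 79 and 93.

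The DNA side was read in the other direction by counting all RNAs that landed in the 25-kb bin holding the start site of each of the 75 annotated genes. The genes were chosen by the same names, and their own RNA is part of the count. The Input bins held 1728 pairs, 697 of them the gene's own RNA, and the H3K27me3-RADIP bins 2833, with 904. Of the 75 bins 43 had pairs in both libraries, 13 in H3K27me3-RADIP only, 4 in Input only and 15 in neither. The 13 are 17.3% of the bins and the 4 are 5.33%, and over all 17507 start-site bins these shares were 8.88% and 5.93%.

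By the same exact negative binomial test, 8 of the 43 bins were called higher and none lower. This is 18.6% higher, beside 10.2% of the 9048 start-site bins in both libraries called higher and 7.81% called lower. The median log2 fold change was 0.34 for the 43 and -0.01 for all. *Ntng2* rose most, from 41 to 151 pairs, a log2 fold change of 1.74 (1.23 to 2.27, adjusted exact p = 1.56e-05), and none of these pairs was *Ntng2* RNA. Most came from the neighbours *Rapgef1* (22 and 64) and *Med27* (19 and 44), and *Ddx31* was among the RNAs that joined in H3K27me3-RADIP (14). The *Ntng2* start site was thus reached by more RNA of surrounding genes while its own RNA was not listed in the bin.

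The *Epha8* bin went from 38 to 93 pairs, 1.15 on the log2 scale (0.59 to 1.73, adjusted exact p = 0.0134), and held no RNA of its own either. *Ephb2* RNA supplied 21 and 35 of the pairs and *Zbtb40* RNA 17 and 32. The *Plxnd1* bin, of a receptor active in blood vessel growth, went from 48 to 109 pairs, 1.04 (0.54 to 1.56, adjusted exact p = 0.0179), with *Tmcc1* RNA giving 33 and 57 and its own RNA 15 and 29. When RNAs of the start-site genes themselves were left out, these 3 of 30 bins were called, beside 6.97% of the 6610 bins tested, so the count then lay nearer to the background. The other 5 were not called, though *Sema4c* went from 105 to 202 pairs of other RNAs, *Sema5b* from 53 to 109, *Rgma* from 25 to 50 and *Epha10* from 19 to 36, and at *Ephb2* other RNAs were not listed in Input.

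The 5 were *Sema4c*, from 105 to 209 pairs (0.85, adjusted exact p = 0.0201), mostly *Fam178b* RNA, *Sema5b*, from 76 to 150 (0.84, 0.0366), *Rgma*, from 25 to 61 (1.14, 0.0396), *Ephb2*, from 41 to 85 (0.91, 0.0623), and *Epha10*, from 19 to 49 (1.22, 0.0476). At *Ephb2* its own RNA made up all 41 pairs in Input and 58 of 85 in H3K27me3-RADIP. *Ephb2*, *Ntng2* and *Rgma* were the genes whose RNA and start-site bin were both called. At a q-value limit of 0.01 the bins of *Ephb2* and *Epha10* lost their call and those of *Plxna4* and *Plxnc1* gained one. With an assumed variation of 0.4 no bin was called.

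Several bins were listed in H3K27me3-RADIP alone. Those of *Sema7a*, a membrane-anchored ligand of plexin C1, and of *Sema6b*, a transmembrane semaphorin, each held 68 pairs there, from 6 and 5 RNAs. At *Sema7a* the RNAs were led by *Pml* with 18 pairs, with *Sema7a* itself at 12, and at *Sema6b* by its own RNA with 16. The *Epha1* bin held 28 pairs, the *Efna2* bin 27 and the *Ephb1* bin 23, of which 14 were *Ephb1* RNA. *Plxna3* was the reverse, with 21 pairs in Input and none listed in H3K27me3-RADIP.

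**Figure D5:**
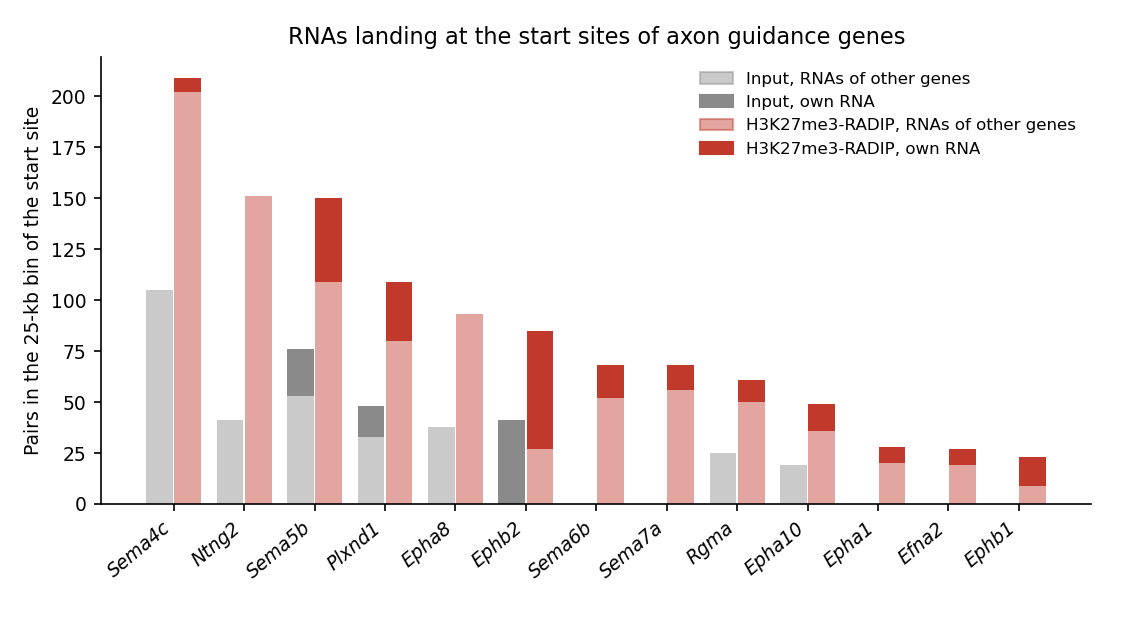
Pairs landing in the 25-kb bin of the start site for the 8 axon guidance genes whose bin was called higher and the 5 with at least 20 pairs in H3K27me3-RADIP and none listed in Input. Pale bars are RNAs of other genes and full bars the gene's own RNA, and the *Ntng2* and *Epha8* bars are pale throughout.

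Over all 75 bins, the RNAs of other genes with the most pairs were *Fam178b* (80 in Input and 164 in H3K27me3-RADIP, at *Sema4c* and *Unc50*), *Arglu1* (63 and 69, at *Efnb2*), *Ccnf* (47 and 55, at *Ntn3*), *Tmem131* (46 and 48, at *Sema4c* and *Unc50*) and *Tmcc1* (33 and 57, at *Plxnd1*). At some start sites the other RNA was nearly level, as for *Pard3* RNA at *Nrp1*, with 42 and 46 pairs.

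Promoter sequence is shown for 4 genes whose start-site bin differed between the libraries, and CpG-rich promoters are known as sites of Polycomb binding in mESCs. The 250 bases before the start site are printed 5′ to 3′ on the strand of the gene, from RefSeq on GRCm38.p6, with each CG in capitals. *Ephb2* (chr4:136836013-136836262, minus strand) held 20 CG, *Epha8* (chr4:136956817-136957066, minus strand) 46, *Plxnd1* (chr6:115995006-115995255, minus strand) 16 and *Sema7a* (chr9:57939862-57940111, plus strand) 17. CG reads the same on both strands. Of 32851 promoters of this length 92.1% held at least 1 CG, with a median of 6. They belong to 27025 gene symbols, more than the 21951 annotated protein-coding genes, so this set is not limited to coding genes. At least as many as *Epha8* were held by 0.323%, as many as *Ephb2* by 17.9%, as *Sema7a* by 23.5% and as *Plxnd1* by 25.4%.
Ephb2: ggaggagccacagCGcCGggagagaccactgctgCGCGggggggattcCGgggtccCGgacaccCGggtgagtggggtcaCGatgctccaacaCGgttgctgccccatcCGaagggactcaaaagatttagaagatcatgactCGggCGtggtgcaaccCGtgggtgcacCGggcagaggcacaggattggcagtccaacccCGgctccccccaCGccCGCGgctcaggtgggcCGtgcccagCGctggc
Epha8: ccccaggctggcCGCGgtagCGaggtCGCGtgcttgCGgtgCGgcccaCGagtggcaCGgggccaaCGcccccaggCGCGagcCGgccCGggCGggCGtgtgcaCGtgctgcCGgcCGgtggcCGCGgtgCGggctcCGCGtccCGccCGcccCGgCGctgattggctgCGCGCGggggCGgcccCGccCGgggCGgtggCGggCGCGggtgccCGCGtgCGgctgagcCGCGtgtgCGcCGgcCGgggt
Plxnd1: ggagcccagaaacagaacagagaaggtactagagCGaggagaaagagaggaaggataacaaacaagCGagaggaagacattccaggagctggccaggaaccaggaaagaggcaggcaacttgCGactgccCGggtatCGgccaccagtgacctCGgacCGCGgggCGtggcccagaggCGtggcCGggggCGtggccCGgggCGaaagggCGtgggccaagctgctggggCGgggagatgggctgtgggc
Sema7a: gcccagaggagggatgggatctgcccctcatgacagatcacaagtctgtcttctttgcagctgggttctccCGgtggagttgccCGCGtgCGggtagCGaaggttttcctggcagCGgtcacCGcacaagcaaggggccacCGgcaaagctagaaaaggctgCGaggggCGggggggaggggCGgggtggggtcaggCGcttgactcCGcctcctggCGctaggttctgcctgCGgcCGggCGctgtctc

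RefSeq held a promoter in the same bin for 60 of the 75 genes. With every promoter of the 64 matched genes counted singly, as in the table of all promoters, the median of the 82 was 15.5 CG. Of these, 65, or 79.3%, lay above the median of all promoters, compared with 46.3% of all. The matched genes are all protein-coding, while the set of all promoters is not limited to coding genes, so these shares compare unlike sets. High counts were not limited to genes whose bin was called. *Slit3*, with 61 and 64 pairs at its start site and no call, held 35 CG, and *Sema3c* held 39. Methylation and H3K27me3 themselves were not measured in these tables.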

How the data were processed

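The authors split each read at the bridge adaptor, mapped RNA and DNA tags to mm10 (the submitters' processing notes name BWA 0.7.15-r1140), kept uniquely mapped pairs, annotated RNA tags with GENCODE genes and modelled each RNA's background over 25-kb bins. Per RNA and bin, the deposited tables give a q-value, and the authors kept pairs at or below 0.1. After this limit 1305107 pairs remained in Input and 1415135 in H3K27me3-RADIP. These are not sequencing depths, and the paper reports more raw reads for Input than for H3K27me3-RADIP.

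From these tables, lines were counted per RNA name, bin and region, with distances between tag centres. Gene positions came from GENCODE M21 on the same build, an older release than the authors', and 60 of 61 gene identifiers matched with their version. TMM factors (30% and 5% trims) were 1.03 and 0.975. The exact negative binomial test doubled the smaller tail. Fisher's test, 95% Wilson and exact binomial intervals used scipy 1.17.1 in Python 3.11.15 with pandas 2.3.3. Scripts were tested on simulated data.

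Pair counts were given for called RNAs, the 10 with the most pairs and those in 1 library only with at least 10 pairs. Fold changes of single RNAs were given for those called and for *Robo1* and *Sema3e*. Others were named to account for every gene. Landing sites away from the genes and printed sequences were picked with their values in view. The genes and lists were chosen with earlier results of these data known. Alternatives were a q-value limit of 0.01, repeated pairs counted once, other assumed variation, library totals, gene identifiers, at least 50 pairs, distinct bins, other distances and weights, and leaving out single RNAs. Unfiltered pairs were not analysed here. Values of a few further genes that the counts include are not reported here.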

Additional observations from a re-analysis of the deposited data

How the results depend on the processing

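No paired analysis was possible because the replicates were merged into 1 table per group. For the same reason no replicate was left out and no tool that estimates variation was run. The number of RNAs called higher was 13 with counting error only, 1 with a variation of 0.2, 0 with 0.4 and 0 with distinct bins counted in place of pairs, where a few bins per RNA leave little to count and no protein-coding RNA was called. Of all shared protein-coding RNAs, 11.7% were higher with counting error only, 0.503% with 0.2 and 0% with 0.4. RNAs called lower numbered 1 at a q-value limit of 0.01, 1 with repeated pairs counted once, 1 among RNAs with at least 50 pairs, 2 with library totals and 3 with counting error only, against 0. Over all shared protein-coding RNAs the lower calls were, in the same order, 653 of 7116, 581 of 8158, 595 of 5359, 812 of 8158 and 1060 of 8158. The main setting gave 627 of 8158. *Ephb1* kept its call under 8 of 10 alternatives, *Plxnc1* and *Sema6d* under 7 of 10, *Rgma* under 6 of 9, *Ephb2* under 6 of 10 and *Ntng2* under 3 of 8. The log2 ratio of all pairs was 0.32 at a q-value limit of 0.01 and 0.21 with library totals. RNAs with a changed long-range share numbered 6 at a q-value limit of 0.01 and 6 with repeated pairs counted once, against 8. The difference in long-range share was 1.28 points with equal weights. Start-site bins called higher numbered 3 without the gene's own RNA and 0 with a variation of 0.4. The cause was not tested. The small-probability form of the exact test and the sum without *Unc5cl*, both added after the data were seen, left the calls at 6 and 8 and the log2 ratio at 0.28. The fold changes of the called RNAs kept their sign, but the median log2 fold change of the 44 shared RNAs, 0.34, was -0.06 with distinct bins. RNAs near 7 pairs lie at the smallest count that is listed, so their presence in 1 library alone is the least certain result.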
